A study of Homo sapiens with 18 samples.

Results

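Cultures labelled XG1 were exposed for 6 h to 1000 nM YKL-5-124 (3 libraries) or to DMSO, the solvent (3 libraries), and their transcripts were read from the 3′ end. These 6 libraries were chosen by their labels alone, out of 18 in the series, and every gene was compared on the log2(FPKM + 1) scale. The other libraries hold XG1 cultures at 100 nM and AMO1 cultures with DMSO, 100 nM or 1000 nM, 3 of each. They share the estimate of spread in the same fit, and their own values appear only where a difference is drawn to them. Both names are those of human multiple myeloma lines, multiple myeloma being a cancer of antibody-secreting plasma cells, and the series title places them among resistant lines. Each is a single line, grown in multiwell plates. Nothing in the labels states that the 3 replicates of a group were grown apart, and every p below then rests on a spread that may be technical.

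YKL-5-124 is a covalent inhibitor of CDK7. With cyclin H (CCNH) and MNAT1, CDK7 forms the CDK-activating kinase, which switches on the cell cycle kinases by phosphorylating their activation loop. The same trimer is the kinase module of TFIIH, the initiation factor in which it phosphorylates the repeat tail of the largest RNA polymerase II subunit as transcription begins. Active cell cycle kinases in turn release E2F factors from RB proteins, and E2F factors drive genes of DNA replication.

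The data went against the plasma cell identity that the label XG1 names. Of 15 plasma cell genes, 8 were under 1 FPKM in all 3 libraries at 1000 nM and in all 3 with DMSO, among them IRF4, PRDM1, CD38, SLAMF7 and TNFRSF13B. The 15 genes summed to 148 to 197 FPKM at 1000 nM and 182 to 187 FPKM with DMSO, beside 6758 to 7816 FPKM in AMO1 at 1000 nM and 6696 to 9937 FPKM in AMO1 with DMSO. Globin and heme synthesis genes summed to 3577 to 4099 FPKM at 1000 nM and 3930 to 4107 FPKM with DMSO in the XG1 libraries, and to 434 to 486 FPKM at 1000 nM and 381 to 615 FPKM with DMSO in the AMO1 libraries. Of 18 T cell and myeloid markers, 13 at 1000 nM and 14 with DMSO were under 1 FPKM in all 3 XG1 libraries, and the list summed to 24.4 to 33.7 FPKM at 1000 nM and 36.5 to 43.9 FPKM with DMSO. The cultures are therefore called XG1 libraries throughout, and each direction is that of these libraries.

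FPKM is a level scaled to library size and transcript length, and without read counts the depth stays unknown and no interval for counting error can be had. Of 26249 genes listed, 12204 averaged 1 FPKM or more in some group of the 6 and were tested with limma. A gene was called at a Benjamini-Hochberg adjusted p below 0.05. Library 2 at 1000 nM stood apart. It had 9284 genes at 1 FPKM or more, against 10155 and 10207 in the other libraries at 1000 nM and 10112 to 10532 with DMSO, and its median log2 level was 2.21, against 2.62 and 2.68 at 1000 nM and 2.63 to 2.87 with DMSO. The spike-in RNAs of the 6 libraries deviated by -0.06 to 0.01 log2. Results that rest on this library are also given without it.

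Far more genes were called lower than higher at 1000 nM. Of 12204 genes 2152 (17.6%) were called, 1920 (15.7%) lower and 232 (1.9%) higher, and by at least 2-fold 377 (3.09%) were lower and 73 (0.598%) higher. Of the 12204 changes 8987 were negative, and the median change of all genes was -0.19 log2. With each library centred on its own median that value was 0.07, a shift of -0.26 that lies in each uncentred change, and 969 genes (7.94%) were called lower and 969 (7.94%) higher (15.9% in all). All 3 treated libraries lay below all 3 DMSO libraries for 3421 genes (28.03%) and above them for 507 (4.15%). With quantile normalization 1209 were lower and 1174 higher. All 232 genes called higher were also called higher after centring, while 969 of the 1920 lower ones were also called lower. Without library 2 at 1000 nM the median change was -0.10, and 933 genes were lower and 251 higher. DMSO libraries weighed on the counts too, with 954 lower and 154 higher without replicate 1, 1196 and 139 without replicate 2, and 150 higher without replicate 3. Without replicate 1 at 1000 nM 141 genes were higher. Leaving out each of the 6 libraries in turn kept 801 of the lower calls and 93 of the higher ones.

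By mean level over both groups, 3.44% of genes under 1 FPKM were called lower, 12.9% of those from 1 to 5 FPKM, 21.7% of those from 5 to 20 FPKM, 24.01% of those from 20 to 100 FPKM and 12.0% of those at 100 FPKM or more. The shares called higher in the same bins were 1.49%, 2.74%, 1.63%, 1.51% and 0.994%. Among the 10633 genes of at least 1 FPKM in a compared group, 18.03% were called lower and 2.14% higher. Most gene lists below hold mainly genes of that level, while the 15.7% and 1.9% set beside them are of all 12204 genes. The 232 genes called higher had a median of 5.30 FPKM at 1000 nM and 2.13 FPKM with DMSO, and 69.4% of them were under 5 FPKM with DMSO. The 1920 genes called lower had a median of 7.01 FPKM at 1000 nM and 13.4 FPKM with DMSO, and 22.7% were under 5 FPKM with DMSO. All genes tested had medians of 4.88 FPKM at 1000 nM and 5.92 FPKM with DMSO, and 46.2% were under 5 FPKM with DMSO. The DMSO level is itself part of each change, so these medians describe the called genes and test nothing.

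**Figure D1:**
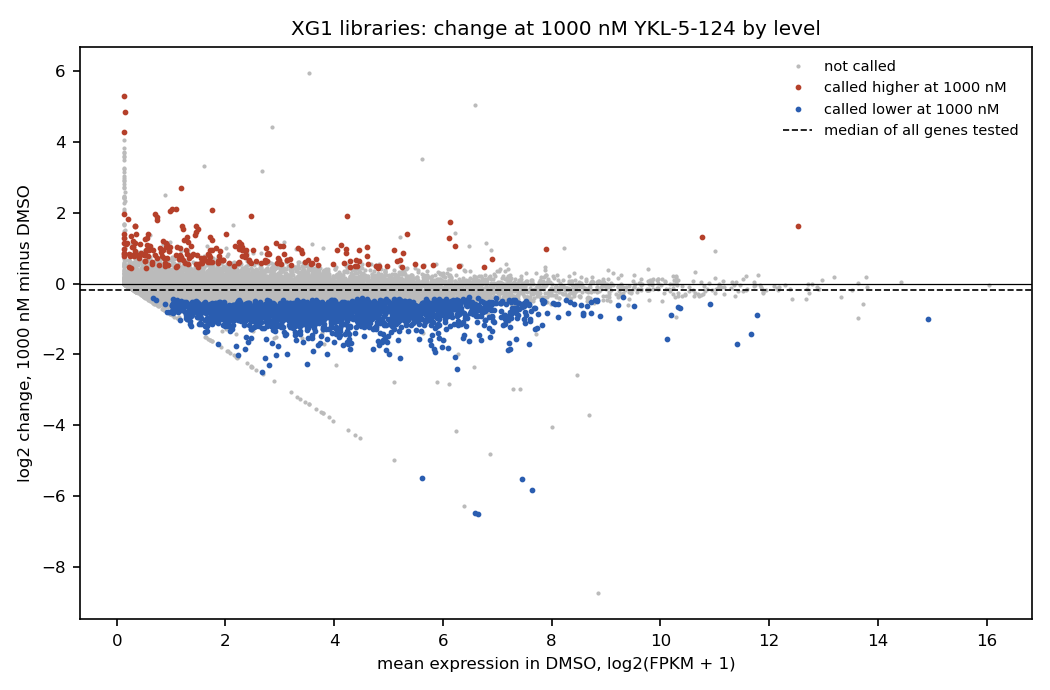
Each point is a gene, with its mean level in the 3 DMSO libraries across (log2(FPKM + 1)) and its log2 change at 1000 nM upward, red where called higher (232), blue where called lower (1920) and grey where not called. The dashed line is the median change of all 12204 genes, -0.19, and most red points lie at low DMSO levels.

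The largest falls and rises were taken only from called genes whose groups do not overlap, so the lack of overlap is part of the choice. The 12 largest falls by log2 change included 2 host genes of small nucleolar RNAs, SNHG12 and SNHG3. SNHG12, a gene whose introns carry small nucleolar RNAs, had 14.1, 9.57 and 17.3 FPKM at 1000 nM, against 76.98, 66.9 and 82.4 FPKM with DMSO. GBGT1, a glycosyltransferase that builds a glycolipid of the cell surface, had 1.74, 1.15 and 1.16 FPKM at 1000 nM, against 11.2, 11.8 and 8.03 FPKM with DMSO. Both genes were lower in every treated library than in any DMSO library. The log2 change of SNHG12 was -2.41 ± 0.20 (SE, 3 libraries a group here and below, -2.15 after centring, limma adjusted p = 8.56e-07). That of GBGT1 was -2.27 ± 0.18 (-2.01 after centring, limma adjusted p = 7.97e-07). Each SE of a log2 change is that of the limma fit over all 18 libraries, and not the scatter of the 6 compared libraries alone. TEX19, a germ cell gene, had 0.433, 0.779 and 0.437 FPKM at 1000 nM, against 5.84, 5.39 and 5.53 FPKM with DMSO (log2 change -2.09 ± 0.20, adjusted p = 2.13e-06). GEMIN6, a subunit of the SMN complex that assembles spliceosomal RNPs, had 5.39, 6.13 and 10.7 FPKM at 1000 nM, against 33.6, 31.7 and 27.9 FPKM with DMSO (log2 change -1.98 ± 0.26, adjusted p = 4.84e-05). In TEX19 and GEMIN6 too the groups were far apart, with GEMIN6 highest among treated libraries in replicate 3.

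SAPCD1 (-2.50 ± 0.39, adjusted p = 5.85e-04), DHRS9, a short-chain dehydrogenase (-2.01 ± 0.19, adjusted p = 1.68e-06), CHAC1, METTL1, SNHG3 and HEMGN, described with their groups, were also among the 12 largest falls. SAPCD1 was close to the lowest values of the tables at 1000 nM (0.192, 0.0811 and 0.116 FPKM), against 4.77, 6.31 and 5.201 FPKM with DMSO. The antisense-named ENO1-AS1 (-2.00, adjusted p = 0.0161) and FOXD3-AS1 (-1.98, adjusted p = 0.0359) complete the 12. The ENO1-AS1 call ended without DMSO replicate 1 (adjusted p = 0.0572), DMSO replicate 2 (0.0671) or 1000 nM replicate 2 (0.0801). The FOXD3-AS1 call ended after centring (adjusted p = 0.0611), and without any single library but 1000 nM replicate 3, reaching 0.125.

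Among the rises, EGR1, a zinc finger factor of the immediate early response, had 79.9, 60.9 and 69.8 FPKM at 1000 nM, against 19.3, 18.95 and 15.5 FPKM with DMSO. HIST1H3D, a histone H3 gene, had 18.99, 21.6 and 19.1 FPKM at 1000 nM, against 4.65, 7.22 and 2.68 FPKM with DMSO. CCDC92, a coiled-coil protein, had 14.3, 10.2 and 15.8 FPKM at 1000 nM, against 3.54, 2.34 and 1.52 FPKM with DMSO. All 3 were above every DMSO library in each treated library, as the choice required. Their log2 changes were 1.91 ± 0.25 for EGR1 (adjusted p = 3.80e-05), 1.91 ± 0.22 for HIST1H3D (1.13e-05) and 2.08 ± 0.23 for CCDC92 (6.09e-06). SDCBP2, which encodes syntenin-2, had 9.41, 6.59 and 7.601 FPKM at 1000 nM, against 0.466, 1.600 and 1.21 FPKM with DMSO (log2 change 2.11 ± 0.24, adjusted p = 1.08e-05). ALDH8A1, an aldehyde dehydrogenase, had 2.63, 3.53 and 3.33 FPKM at 1000 nM, against 0.306, 0.0902 and 0.0943 FPKM with DMSO (log2 change 1.84 ± 0.19, adjusted p = 5.17e-06). Both were scarce with DMSO.

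NRN1L (2.04), KRCC1 (1.97), CCDC107 (1.79), N4BP2L1 (1.63), HCG17 (2.10) and SNAI3-AS1 (1.62) were also among the 12 largest rises, with adjusted p between 1.90e-04 and 0.00578. In NRN1L and KRCC1 the 1000 nM replicate 2 was the lowest treated library, at 2.63 and 1.97 FPKM, against 13.5 and 9.37 FPKM for NRN1L and 7.24 and 9.68 FPKM for KRCC1 in the others. The largest log2 rise among the 12, AGBL5-AS1 (2.70 ± 0.65, adjusted p = 0.013), rested on a split DMSO group. It had 14.4, 14.2 and 12.6 FPKM at 1000 nM, against 8.76, 0.0913 and 0.0959 FPKM with DMSO, and its call ended without DMSO replicate 2 (adjusted p = 0.0555). The sources used here do not state a strand setting of the counting, which leaves values of antisense-named and overlapping genes uncertain, and reads of histone genes can be shared between near-identical copies.

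**Figure D2:**
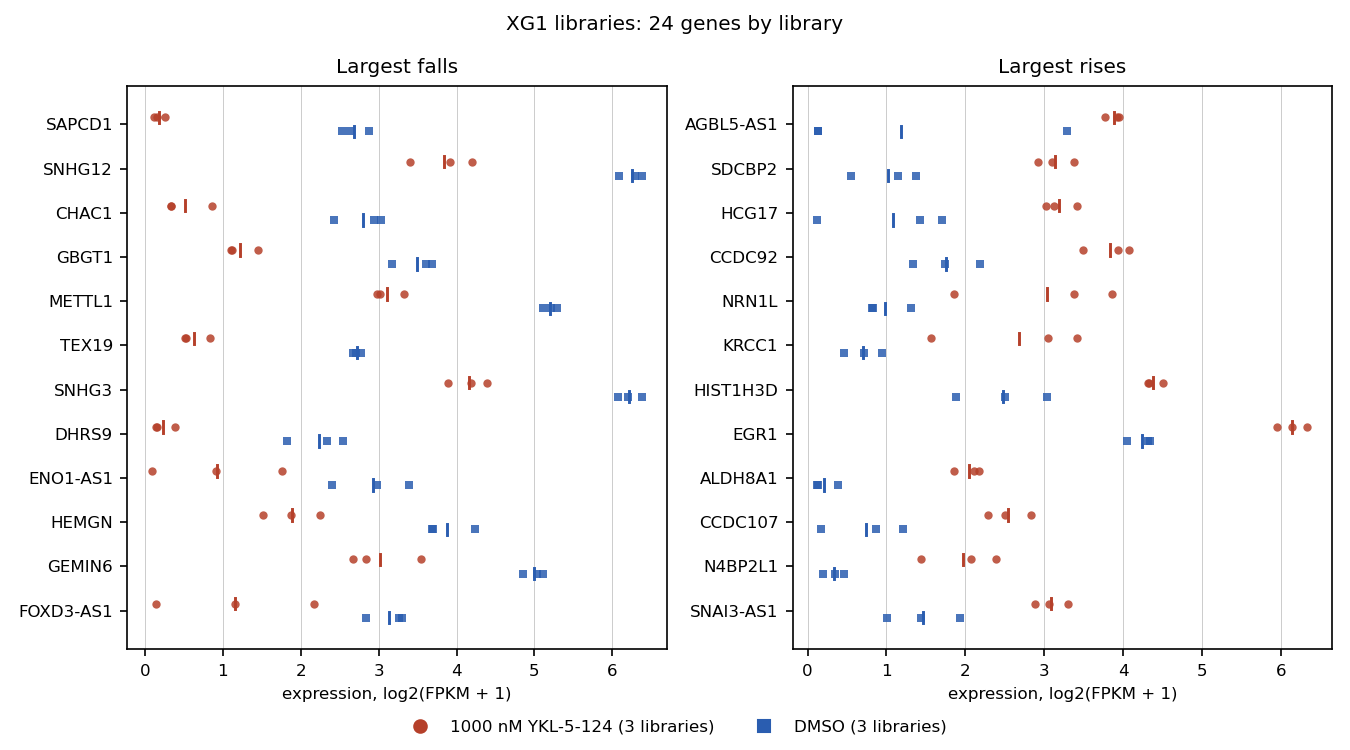
Expression of the 12 genes with the largest falls (left) and the 12 with the largest rises (right), in log2(FPKM + 1), in each library, with 1000 nM as red circles above DMSO as blue squares and a short line at each group mean. The groups do not overlap in any of these 24 genes, which the choice required, and in AGBL5-AS1 a single DMSO library at 8.76 FPKM sits near the treated ones.

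The target of the inhibitor was itself lower in transcript level. CDK7 had 7.22, 7.04 and 10.5 FPKM at 1000 nM, against 18.1, 14.3 and 12.6 FPKM with DMSO. All treated libraries were below all DMSO libraries, with replicate 3 at 1000 nM closest to them. The log2 change was -0.79 ± 0.20 (adjusted p = 0.00945), and the call ended after centring (-0.53, adjusted p = 0.067) and without DMSO replicate 1 (adjusted p = 0.0661). Its partners overlapped between groups. CCNH had 22.5, 11.3 and 27.4 FPKM at 1000 nM and 30.7, 30.3 and 22.8 FPKM with DMSO (log2 change -0.51 ± 0.28, adjusted p = 0.237), and MNAT1 had 12.1, 4.49 and 10.4 FPKM at 1000 nM and 15.8, 11.3 and 11.2 FPKM with DMSO (-0.54 ± 0.26, adjusted p = 0.157). In both genes library 2 at 1000 nM was the lowest of the 6. CDK7 was the 1 called gene of the 10 subunits of the trimer and TFIIH (10%, beside 15.7% of all genes lower). The lower count was 3 without DMSO replicate 3, 2 without library 3 at 1000 nM and 0 without DMSO replicate 1. After centring 0 were lower and 1 higher, and with quantile normalization 0 were lower and 2 higher.

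Of 12 RNA polymerase II subunits 1 rose and 1 fell (8.33% each, beside 1.9% of all genes higher and 15.7% lower). POLR2A, the largest subunit, whose tail CDK7 phosphorylates, had 70.6, 72.3 and 64.8 FPKM at 1000 nM, against 36.7, 40.1 and 36.1 FPKM with DMSO. POLR2H, a small subunit shared by all 3 nuclear polymerases, had 74.3, 66.4 and 76.4 FPKM at 1000 nM, against 133, 122 and 113 FPKM with DMSO. The treated libraries lay above all DMSO libraries for POLR2A and below them for POLR2H. POLR2A rose by 0.86 ± 0.18 log2 (adjusted p = 0.00228) and POLR2H had a log2 change of -0.75 ± 0.12 (adjusted p = 3.00e-04), and the other 10 subunits tested were not called.

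Among kinases and cyclins that act later in transcription, 3 of 13 rose (23.1%, beside 1.9% of all genes) and 1 fell (7.69%, beside 15.7%). CDK19, a Mediator kinase, rose (0.71 ± 0.18, adjusted p = 0.0104), as did CCNL1, cyclin L1 (0.68 ± 0.17, 0.0097), and CCNT1, the cyclin of the elongation kinase P-TEFb (0.58 ± 0.19, 0.036). The count of rises was 6 after centring, 1 without DMSO replicate 3 and 0 with only the compared libraries in the fit. In that limma fit the adjusted p was 0.0694 for CDK19, 0.0631 for CCNL1 and 0.115 for CCNT1. The CCNL1 call ended without DMSO replicate 3 (adjusted p = 0.0506). The CCNT1 call ended without any single library but 1000 nM replicate 2, with adjusted p up to 0.144. CDK12, a kinase of elongating polymerase, had 5.64, 3.903 and 5.64 FPKM at 1000 nM, against 13.8, 10.97 and 11.00 FPKM with DMSO (log2 change -1.10 ± 0.17, adjusted p = 2.17e-04).

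Of 19 factors of the 7SK complex and of pausing and elongation, 4 fell (21.1%, beside 15.7% of all genes) and 1 rose. LARP7, which holds 7SK RNA (-1.07 ± 0.22, adjusted p = 0.00216), and NELFA, a subunit of the pausing factor NELF (-0.80 ± 0.19, 0.00658), were below every DMSO library in each treated library. HEXIM1 (-0.68, adjusted p = 0.0428) and MEPCE (-0.68, 0.0406) were called lower and ELL, an elongation factor, higher (0.66, 0.022), but the HEXIM1 and MEPCE calls ended after centring (adjusted p = 0.0999 and 0.162), and the HEXIM1 groups overlapped. Without library 2 at 1000 nM or without DMSO replicate 2, 2 of the 19 were lower. Without single libraries the ELL call ended too (1000 nM replicate 1 or 3, DMSO replicate 1 or 3, adjusted p up to 0.104).

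Mediator subunits and 3′ end factors had falls that rested on single libraries. Of 29 Mediator subunits 7 fell (24.1%, beside 15.7% of all genes and 18.03% of genes of at least 1 FPKM in a compared group, as all 29 are). Among them were MED20 (-0.96 ± 0.20, adjusted p = 0.00298) and MED4 (-0.69 ± 0.15, 0.00406), both below every DMSO library in each treated library. The count was 2 without library 2 at 1000 nM and 4 without DMSO replicate 1. Of 19 factors that cleave and polyadenylate transcripts 6 fell (31.6%), including CPSF4 (-0.66 ± 0.15, adjusted p = 0.00628), NUDT21 (-0.73 ± 0.18, 0.00698) and PCF11 (-0.66 ± 0.18, 0.0143). That count was 1 without library 2 at 1000 nM, 2 without DMSO replicate 1 and 3 without DMSO replicate 2. Medians were -0.33 for Mediator and -0.34 for the 3′ end factors, beside -0.19 over all genes. After centring 5 Mediator subunits were lower and 3 higher, and 4 of the 3′ end factors lower and 3 higher.

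MYC, the transcription factor of growth genes, had 20.6, 9.52 and 17.4 FPKM at 1000 nM, against 77.9, 62.1 and 37.1 FPKM with DMSO. DMSO replicate 3 was the lowest of its group and still above all treated libraries. The log2 change was -1.84 ± 0.29 (-1.58 after centring, adjusted p = 4.10e-04), and the call held without each of the 6 libraries in turn. Of 11 genes of the MYC and MXD network 3 were lower (27.3%, beside 15.7% of all genes), with MGA (-0.70 ± 0.16, adjusted p = 0.00504) and MLX (-0.44, 0.0438) beside MYC. The MLX call ended after centring (adjusted p = 0.309) and without any single library but replicate 3 of either group (up to 0.209). MCL1, a survival protein with a short-lived transcript, had 116, 115 and 109 FPKM at 1000 nM and 94.4, 99.1 and 76.05 FPKM with DMSO. Its treated libraries were all above its DMSO libraries, but its change of 0.34 ± 0.15 was not called (adjusted p = 0.122). It was called after centring (0.60, adjusted p = 0.00871) and with quantile normalization.

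E2F1, which drives replication genes, had 3.23, 1.903 and 2.57 FPKM at 1000 nM, against 6.39, 7.67 and 8.03 FPKM with DMSO. No treated library reached the lowest DMSO library, and the log2 change was -1.24 ± 0.25 (-0.98 after centring, adjusted p = 0.00184). Of 12 E2F and RB family genes 5 fell (41.7%, beside 15.7% of all genes), E2F1 with E2F4 (-0.80, adjusted p = 0.0134), E2F6 (-0.80, 0.0306), RBL1 (-0.75, 0.0134) and E2F2 (-0.64, 0.0245). The number was 2 after centring, 1 without library 2 at 1000 nM, 2 without DMSO replicate 1, 3 without DMSO replicate 2 and 8 without library 3 at 1000 nM. Of 16 G1 genes 6 fell (37.5%). CDK3, a G1 kinase, had 0.112, 0.0855 and 0.119 FPKM at 1000 nM, against 2.41, 3.53 and 2.07 FPKM with DMSO (-1.71 ± 0.21, adjusted p = 2.25e-05). CDKN1C, a kinase inhibitor also named p57, had 12.2, 7.13 and 12.6 FPKM at 1000 nM, against 23.1, 25.1 and 21.01 FPKM with DMSO (-1.08 ± 0.21, adjusted p = 0.0014). The G1 count was 2 without library 2 at 1000 nM and 2 without DMSO replicate 1, where the calls of the cyclins CCNE1 (-0.71) and CCNE2 (-0.96) ended.

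The promoters of E2F1 and PCNA, whose transcripts fell, are shown because each holds a letter string bound by E2F factors. Both come from RefSeq on GRCh38.p14, run 5′ to 3′ on the minus strand from 250 bases before to 50 bases after the annotated start, and lie at chr20:33686336-33686635 (E2F1) and chr20:5126573-5126872 (PCNA, the first of 2 annotated starts, the window of the other holding neither string). Capitals mark TTTGGCGC in E2F1 and, in PCNA, TTTCCCGC on the opposite strand, which reads GCGGGAAA here.
E2F1: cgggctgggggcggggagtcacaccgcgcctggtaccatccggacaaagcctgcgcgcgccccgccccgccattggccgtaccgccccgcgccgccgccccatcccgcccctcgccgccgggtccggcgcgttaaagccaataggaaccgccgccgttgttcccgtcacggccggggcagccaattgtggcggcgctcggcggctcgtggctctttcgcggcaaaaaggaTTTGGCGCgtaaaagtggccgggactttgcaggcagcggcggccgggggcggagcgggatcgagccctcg
PCNA: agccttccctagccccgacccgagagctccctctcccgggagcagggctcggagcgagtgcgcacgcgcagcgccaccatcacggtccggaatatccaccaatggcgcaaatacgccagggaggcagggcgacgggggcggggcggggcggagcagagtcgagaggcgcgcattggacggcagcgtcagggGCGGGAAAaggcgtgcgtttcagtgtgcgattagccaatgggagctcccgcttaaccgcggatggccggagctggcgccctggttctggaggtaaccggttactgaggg
The table holds 35116 promoters of 27305 genes, and 9545 of the 12204 tested genes matched it. Searched on both strands, TTTGGCGC was in 0.652% of all promoters, in 1.96% of those of genes called lower and in 0 of 229 promoters of genes called higher. TTTCCCGC was in 1.63% of all promoters, 3.30% of those of genes called lower and 1.75% of those of genes called higher. The promoters of tested genes as a whole held them in 0.981% and 2.44% of cases. A match is a letter string and not evidence of binding.

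Of 45 tested genes that license and run DNA replication, 32 fell (71.1%, beside 15.7% of all genes). The median change was -0.79, and 43 of the changes were negative, beside 8987 of all 12204 genes. After centring 25 fell, and without library 2 at 1000 nM 24. PCNA, the sliding clamp, had 47.7, 28.8 and 49.3 FPKM at 1000 nM, against 176, 156 and 122 FPKM with DMSO (-1.85 ± 0.20, adjusted p = 6.09e-06). RFC4, a subunit of the clamp loader, had 9.33, 9.26 and 10.1 FPKM at 1000 nM, against 34.6, 28.5 and 26.6 FPKM with DMSO (-1.54 ± 0.18, adjusted p = 1.28e-05). TIPIN, which steadies the fork, had 11.1, 11.98 and 8.01 FPKM at 1000 nM, against 33.6, 32.2 and 22.4 FPKM with DMSO (-1.42 ± 0.20, adjusted p = 8.53e-05). The treated libraries were close together in RFC4 and apart in PCNA, where replicate 2 was lowest, and neither group reached the other in any of these genes. POLE2, a subunit of the leading strand polymerase, also fell (-1.54 ± 0.33, adjusted p = 0.00362).

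Not all helicase subunits were called, and differences between them were not tested. MCM3 (-1.40, adjusted p = 4.63e-04), MCM4 (-0.99, 1.92e-04), MCM2 (-0.96, 0.0011), MCM6 (-0.80, 0.00411) and MCM7 (-0.52, 0.026) were called lower, while MCM5 averaged 29.99 ± 0.283 FPKM at 1000 nM and 32.7 ± 1.51 FPKM with DMSO (SD) and was not called (-0.12, 0.63). The MCM7 call ended after centring (-0.26, adjusted p = 0.262) and held without 2 of the 6 libraries taken out singly, and MCM5 stood at 0.14 after centring. GMNN, geminin, which blocks a further round of licensing, averaged 63.2 ± 11.5 FPKM at 1000 nM and 141 ± 15.3 FPKM with DMSO (-1.15 ± 0.16, adjusted p = 8.53e-05). CDT1, the licensing factor that geminin holds, fell too (-0.60 ± 0.13, adjusted p = 0.00317), though not after centring (adjusted p = 0.118).

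Enzymes that make nucleotides followed, with 13 of 25 lower (52.0%, beside 15.7% of all genes). All 25 changes were negative, beside 8987 of all 12204 genes, and the median was -0.52. RRM2, the small subunit of ribonucleotide reductase, had 14.5, 14.2 and 15.8 FPKM at 1000 nM, against 37.2, 37.4 and 34.8 FPKM with DMSO. The 2 groups were each within a narrow span and well apart (-1.24 ± 0.14, adjusted p = 7.56e-06). GART of purine synthesis (-1.05 ± 0.17, adjusted p = 3.51e-04), DHODH of pyrimidine synthesis (-1.09 ± 0.25, 0.00547) and CTPS1, which makes CTP (-0.99 ± 0.21, 0.00267), also fell. After centring 9 of the 25 were lower, and 9 without library 2 at 1000 nM.

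Repair and mitosis genes had falls that leaned more on single libraries. Of 28 repair and checkpoint genes 14 fell, and all 28 changes were negative. UNG, which removes uracil from DNA, had 11.98, 9.36 and 11.6 FPKM at 1000 nM, against 34.97, 38.4 and 31.5 FPKM with DMSO (-1.59 ± 0.15, adjusted p = 1.61e-06). Each treated library was below every DMSO library. EXO1 (-1.46 ± 0.16, adjusted p = 7.56e-06) and the mismatch protein MSH6 (-1.22 ± 0.16, 4.21e-05) fell as well. Of 32 G2/M genes 15 fell (46.9%, beside 15.7% of all genes). CDK1, the mitotic kinase, had 67.5, 67.8 and 79.7 FPKM at 1000 nM, against 149, 151 and 138 FPKM with DMSO (-1.02 ± 0.16, limma adjusted p = 3.26e-04). MAD2L1 of the spindle checkpoint was at -1.12 ± 0.19 (limma adjusted p = 4.69e-04). Without library 2 at 1000 nM the counts were 7 for repair and 8 for G2/M, without DMSO replicate 1 they were 8 and 9, and without DMSO replicate 2 repair had 8. After centring they were 10 and 7.

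Of 34 histone genes 7 were lower (20.6%, beside 15.7% of all genes) and 2 higher (5.88%, beside 1.9%). HIST1H4C, a histone H4 gene, had 1476, 1262 and 984 FPKM at 1000 nM, against 4109.5, 2829 and 2992 FPKM with DMSO. HIST1H2BK, a histone H2B gene, had 481, 461 and 460.3 FPKM at 1000 nM, against 286, 225 and 204 FPKM with DMSO. Each treated library lay below the DMSO group for HIST1H4C and above it for HIST1H2BK, with log2 changes of -1.41 ± 0.21 (adjusted p = 1.40e-04) and 0.98 ± 0.14 (adjusted p = 8.79e-05). HIST1H4C was the 1 gene still called lower after centring, against 4 higher, and 4 were higher without DMSO replicate 2. Replication-dependent histone transcripts mostly end without a poly(A) tail, so a 3′ end library reads them only in part. The count of lower genes was 1 without DMSO replicate 1, 3 without DMSO replicate 2 or without library 1 or 2 at 1000 nM, and 4 without library 3 at 1000 nM.

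**Figure D3:**
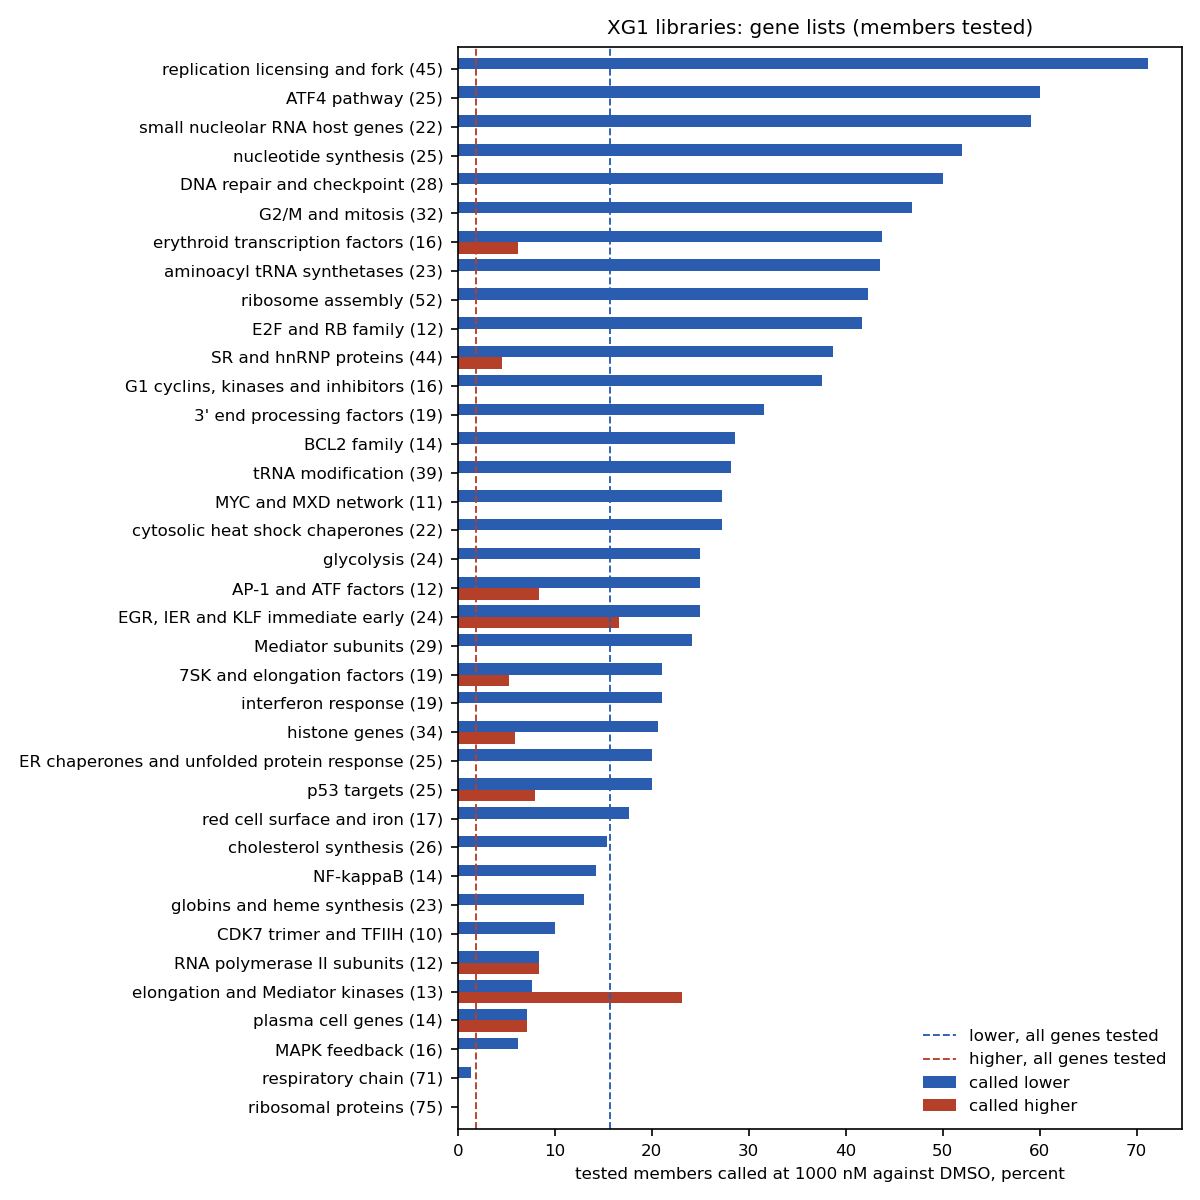
Share of the tested members of each gene list (number tested in brackets, lists of at least 10) that were called lower (blue) or higher (red) at 1000 nM against DMSO, in percent. Dashed lines give the shares of all genes, 15.7% lower and 1.9% higher, and replication genes stand at the top with 71.1% lower while ribosomal proteins are at 0.

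Of 16 erythroid transcription factors 7 fell (43.8%, beside 15.7% of all genes) and 1 rose (6.25%, beside 1.9%), and no globin gene was called. KLF1, the erythroid Krüppel-like factor that activates beta-like globin genes, had 15.3, 11.7 and 16.2 FPKM at 1000 nM, against 54.8, 59.5 and 56.1 FPKM with DMSO. HEMGN, hemogen, a nuclear protein of blood-forming cells, had 3.77, 1.87 and 2.67 FPKM at 1000 nM, against 17.9, 11.8 and 11.9 FPKM with DMSO. MYB, a factor of blood progenitors, had 34.5, 36.1 and 44.9 FPKM at 1000 nM, against 82.2, 83.4 and 79.1 FPKM with DMSO. No treated library came near the DMSO group in any of the 3 genes. The log2 changes were -1.92 ± 0.21 for KLF1 (adjusted p = 6.09e-06), -1.99 ± 0.20 for HEMGN (3.86e-06) and -1.07 ± 0.19 for MYB (7.84e-04). IKZF1 (-0.84, adjusted p = 0.00475), LYL1 (-0.72, 0.0133), KLF3 (-0.69, 0.0152) and GATA1, given next, were also lower, and the 7 lower factors were 5 after centring and 5 without library 2 at 1000 nM. The LYL1 call held without 4 and the KLF3 call without 5 of the 6 libraries taken out singly, and LYL1 was not called after centring (adjusted p = 0.106).

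GATA factors went opposite ways. GATA2, a factor of stem cells and early progenitors, had 74.2, 44.4 and 85.7 FPKM at 1000 nM, against 36.95, 35.1 and 28.7 FPKM with DMSO. GATA1, the main factor of red cell maturation, had 21.1, 15.9 and 20.4 FPKM at 1000 nM, against 29.9, 29.3 and 26.3 FPKM with DMSO. GATA2 was higher in every treated library, least so in replicate 2, and GATA1 lower in every one, most so in replicate 2. GATA2 rose by 0.95 ± 0.19 log2 (adjusted p = 0.00228), and this call held without each library and after centring (1.21). The GATA1 change of -0.56 ± 0.15 (adjusted p = 0.0159) was not called after centring (-0.30, adjusted p = 0.108), nor without library 2 at 1000 nM (0.0722), DMSO replicate 1 (0.0651) or DMSO replicate 2 (0.0609). NFE2 (-0.01, adjusted p = 0.992) and TAL1 (-0.20, 0.499) were not called.

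Of 23 globin and heme genes 3 were lower (13.04%, beside 15.7% of all genes), and after centring 2 were lower and 2 higher. The lower count was 1 without DMSO replicate 1, DMSO replicate 2 or library 2 at 1000 nM. CPOX, an enzyme of heme synthesis, had 8.53, 5.31 and 7.67 FPKM at 1000 nM, against 19.7, 14.97 and 10.6 FPKM with DMSO (-0.96 ± 0.20, adjusted p = 0.00231). The heme exporter FLVCR1 was called too (-0.64, adjusted p = 0.0208), but not without library 2 at 1000 nM (adjusted p = 0.103), DMSO replicate 1 (0.106) or DMSO replicate 2 (0.0514). The fetal globin gene HBG1 averaged 1234 ± 59.2 FPKM at 1000 nM and 1265 ± 118 FPKM with DMSO (-0.03, adjusted p = 0.994, 0.22 after centring), and the alpha globin gene HBA2 averaged 544 ± 20.6 FPKM at 1000 nM and 493 ± 30.4 FPKM with DMSO (0.14, 0.857). Globin genes have near-identical copies that can share reads. Of 17 red cell surface and iron genes 3 fell (17.6%), among them RHAG (-0.62) and EPOR (-0.59), and the count was 0 after centring, without library 2 at 1000 nM or without DMSO replicate 1 or 2, but 6 without DMSO replicate 3.

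**Figure D4:**
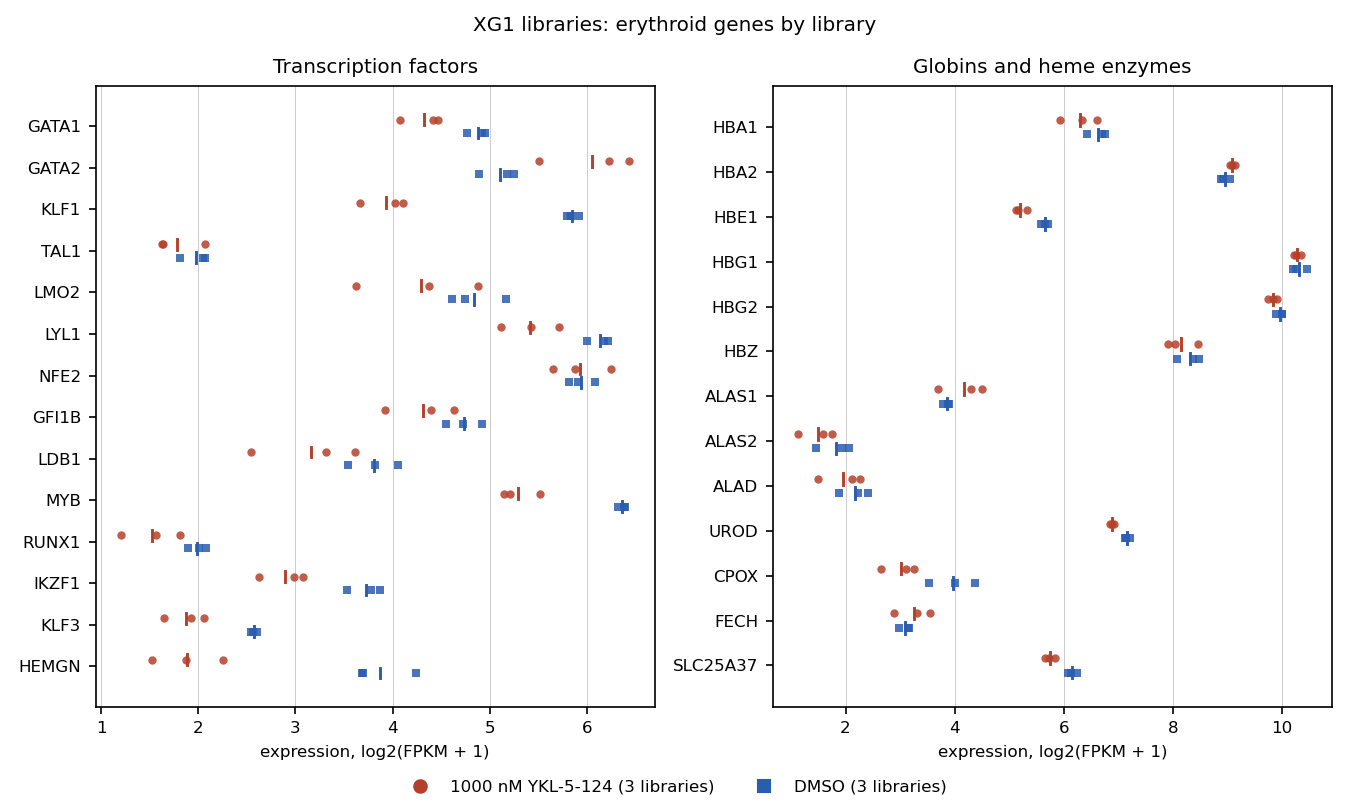
Expression of erythroid transcription factors (left) and of globin and heme genes (right), in log2(FPKM + 1), in each library, with 1000 nM as red circles above DMSO as blue squares and a short line at each group mean. KLF1, HEMGN and MYB are separated by group and lower at 1000 nM, GATA2 is higher, and HBG1, HBG2 and HBA2 were not called.

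The amino acid stress pathway of ATF4, a factor induced when amino acids run short, fell in 15 of 25 tested genes (60.0%, beside 15.7% of all genes). The count was 12 after centring and 11 without library 2 at 1000 nM, and the median change was -0.77. ATF4 had 43.2, 47.6 and 47.5 FPKM at 1000 nM, against 115, 117 and 126 FPKM with DMSO. CHAC1, an ATF4 target that degrades glutathione, had 0.261, 0.812 and 0.264 FPKM at 1000 nM, against 7.196, 4.36 and 6.67 FPKM with DMSO. DDIT4, an inhibitor of mTORC1 signalling, had 11.6, 14.9 and 22.3 FPKM at 1000 nM, against 63.4, 52.5 and 47.7 FPKM with DMSO. In all 3 genes the treated libraries were well below the DMSO ones, CHAC1 being near the lowest values of the tables in replicates 1 and 3. The log2 changes were -1.35 ± 0.20 (adjusted p = 1.63e-04), -2.29 ± 0.26 (1.06e-05) and -1.72 ± 0.22 (3.25e-05). The amino acid transporter SLC38A2 fell as well (-1.28 ± 0.16, adjusted p = 3.20e-05), and ASNS, asparagine synthetase, averaged 25.9 ± 4.39 FPKM at 1000 nM and 35.05 ± 4.203 FPKM with DMSO and was not called (-0.43, 0.212).

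The CHAC1 promoter is shown for the composite letters TGATGCAA that ATF4 and its C/EBP partners recognise. It lies at chr15:40953221-40953520 on the plus strand of GRCh38.p14 (RefSeq), again from 250 bases before to 50 after the start. Capitals mark the string, which reads TTGCATCA here because it is on the opposite strand.
CHAC1: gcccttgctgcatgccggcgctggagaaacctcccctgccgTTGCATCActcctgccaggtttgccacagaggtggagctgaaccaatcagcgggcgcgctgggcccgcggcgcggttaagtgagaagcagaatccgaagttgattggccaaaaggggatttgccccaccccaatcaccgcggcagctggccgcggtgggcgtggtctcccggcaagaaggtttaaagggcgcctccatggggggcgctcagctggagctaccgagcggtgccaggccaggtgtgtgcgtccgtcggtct
On either strand TGATGCAA was in 0.866% of all promoters, 0.531% of those of tested genes, 0.803% of those of genes called lower and 0 of 229 of those of genes called higher. Of the other strings searched on both strands, the E-box CACGTG was in 9.61% of promoters of genes called higher, 10.9% of those of genes called lower and 9.75% of those of tested genes. The CRE string TGACGTCA was in 2.62%, 2.59% and 2.94% of the same sets, the GATA string AGATAA in 6.11%, 5.80% and 5.81%, and the TATA string TATAAA in 8.73%, 7.14% and 6.38%. Over all promoters in the table the shares were 7.26%, 1.85%, 10.3% and 11.5% in the same order of strings.

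Of 22 cytosolic heat shock genes 6 fell (27.3%, beside 15.7% of all genes), with 3 lower after centring, 3 without library 2 at 1000 nM and 2 without DMSO replicate 1. HSPA8, the constitutive cytosolic chaperone, had 36.8, 34.8 and 46.3 FPKM at 1000 nM, against 157, 150.2 and 133 FPKM with DMSO (-1.88 ± 0.22, adjusted p = 1.36e-05). DNAJA1, its partner, had 47.6, 50.8 and 53.96 FPKM at 1000 nM, against 102, 91.5 and 85.5 FPKM with DMSO (-0.86 ± 0.16, adjusted p = 0.00108). The heat-inducible HSPA1A averaged 252 ± 52.7 FPKM at 1000 nM and 315 ± 24.6 FPKM with DMSO (-0.34, 0.327) and was not called. Of 25 ER chaperone and unfolded protein genes 5 fell (20%, median change -0.24 and 0.01 after centring), with HERPUD1, an ER degradation factor (-1.45 ± 0.17, adjusted p = 9.97e-06), HSPA5, also named BiP (-0.99 ± 0.17, 4.64e-04), MANF (-0.94 ± 0.18, 0.00168) and XBP1 (-0.77 ± 0.17, 0.00378) among them. All 5 were also called lower after centring. Of 23 aminoacyl tRNA synthetase genes 10 fell (43.5%), led by the scaffold EEF1E1 (-1.05 ± 0.16, adjusted p = 2.46e-04) and AARS (-0.80 ± 0.15, 0.00122), with 3 left after centring and 6 without library 1 or 2 at 1000 nM or DMSO replicate 1 or 2.

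Host genes of small nucleolar RNAs were negative in every member. All 22 tested had a negative change, beside 8987 of all 12204 genes, and 13 fell (59.1%, beside 15.7% of all genes). The count was 9 after centring and 10 without library 2 at 1000 nM, and the median was -0.74. SNHG3 had 17.2, 13.8 and 19.98 FPKM at 1000 nM, against 82.1, 66.3 and 72.8 FPKM with DMSO (-2.06 ± 0.20, adjusted p = 2.07e-06). SNHG19 had 369.6, 371 and 389 FPKM at 1000 nM, against 997, 1236 and 1129.8 FPKM with DMSO (-1.57 ± 0.22, adjusted p = 8.97e-05). Treated and DMSO libraries were far apart in both. SNHG7 (-1.60 ± 0.18, adjusted p = 8.52e-06), SNHG1 (-1.16 ± 0.15, 3.33e-05) and GAS5 (-0.98 ± 0.17, 7.84e-04), which was first found as a growth arrest transcript, fell as well.

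Of 52 ribosome assembly factors 22 fell (42.3%, beside 15.7% of all genes), and 50 changes were negative, beside 8987 of all 12204 genes. GNL3, nucleostemin, had 6.42, 5.13 and 7.47 FPKM at 1000 nM, against 19.1, 18.7 and 16.8 FPKM with DMSO (-1.40 ± 0.19, adjusted p = 8.42e-05). UBTF, the factor that loads RNA polymerase I, had 17.5, 13.2 and 13.1 FPKM at 1000 nM, against 31.6, 24.9 and 25.7 FPKM with DMSO (-0.87 ± 0.16, adjusted p = 9.73e-04). Neither overlapped between groups. The count was 11 after centring, 14 without library 2 at 1000 nM and 14 without DMSO replicate 1. Of 75 ribosomal protein genes 0 were called by limma in either direction. Without library 3 at 1000 nM 4 were called lower, and without DMSO replicate 3, 1. At an unadjusted p under 0.05 the list had 5 lower and 0 higher, with a median change of -0.16, close to -0.19 over all genes. Of 39 tRNA modification genes 11 fell (28.2%, beside 15.7% of all genes). METTL1, which places 7-methylguanosine on tRNA, had 6.89, 8.995 and 7.13 FPKM at 1000 nM, against 36.00, 33.6 and 38.05 FPKM with DMSO (-2.09 ± 0.19, adjusted p = 1.61e-06). TRMT11 (-1.35 ± 0.22, adjusted p = 4.63e-04) and ELP3 (-0.81 ± 0.17, 0.00336) also fell, but the count was 7 after centring, 3 without library 2 at 1000 nM and 4 without DMSO replicate 1 or 2.

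Splicing regulators fell in 17 of 44 genes (38.6%, beside 15.7% of all genes) and rose in 2 (4.55%, beside 1.9%). HNRNPDL, an RNA-binding protein, had 58.8, 57.97 and 56.8 FPKM at 1000 nM, against 209, 189.7 and 174 FPKM with DMSO. SRSF3, a serine and arginine rich splicing factor, had 56.4, 48.97 and 56.5 FPKM at 1000 nM, against 173, 167 and 147 FPKM with DMSO. SRSF7, of the same family, had 42.4, 48.5 and 51.7 FPKM at 1000 nM, against 107, 107 and 108 FPKM with DMSO. In each gene the treated libraries lay close together and far below the DMSO group. The log2 changes were -1.70 ± 0.15 (adjusted p = 1.00e-06), -1.57 ± 0.13 (8.56e-07) and -1.16 ± 0.16 (5.72e-05). SRSF6 (-1.14 ± 0.16, adjusted p = 8.42e-05) fell too. CLK3, a kinase that phosphorylates these proteins, had 18.3, 12.8 and 18.98 FPKM at 1000 nM, against 6.06, 8.71 and 7.43 FPKM with DMSO (1.07 ± 0.20, adjusted p = 0.00126). Its relative CLK4 was called higher (0.60, adjusted p = 0.0495), but not without any single library other than 1000 nM replicate 2 (adjusted p up to 0.223), and its groups overlapped. The count of lower genes was 10 after centring, 9 without library 2 at 1000 nM, 9 without DMSO replicate 1 and 11 without DMSO replicate 2.

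Of 24 immediate early genes 4 were higher (16.7%, beside 1.9% of all genes) and 6 lower (25.0%, beside 15.7%). Beside EGR1, IER3 (0.95 ± 0.19, adjusted p = 0.0019), BTG2, an antiproliferative gene (1.07 ± 0.22, 0.00219), and IER2 (0.69 ± 0.19, 0.0153) rose. The IER2 call ended without library 1 or 2 at 1000 nM (adjusted p = 0.0525 and 0.0763). ZFP36L2, which speeds decay of AU-rich transcripts, had 21.8, 15.3 and 18.8 FPKM at 1000 nM, against 80.1, 70.00 and 54.01 FPKM with DMSO (-1.81 ± 0.18, adjusted p = 2.14e-06). The 6 lower genes were 2 after centring, 2 without library 2 at 1000 nM, 2 without DMSO replicate 1 and 3 without DMSO replicate 3. Of 12 AP-1 and ATF genes JUNB rose, with 41.4, 30.96 and 34.97 FPKM at 1000 nM, against 16.6, 20.8 and 15.8 FPKM with DMSO (0.97 ± 0.17, adjusted p = 8.01e-04). BATF3 (-1.78 ± 0.26, adjusted p = 1.40e-04), JDP2 (-0.98 ± 0.14, 1.68e-04) and ATF3 (-0.99 ± 0.25, 0.00898) fell, and the ATF3 call ended without DMSO replicate 1 (adjusted p = 0.0584) or library 1 at 1000 nM (0.0544), and its groups overlapped.

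Of 25 p53 targets 2 were higher (8.0%, beside 1.9% of all genes) and 5 lower (20%, beside 15.7%), and after centring 4 were higher. GDF15, a secreted stress cytokine, had 110.0, 90.2 and 119 FPKM at 1000 nM, against 34.5, 42.3 and 41.3 FPKM with DMSO (1.41 ± 0.20, adjusted p = 9.62e-05). BBC3, the death protein PUMA, had 25.9, 22.7 and 22.9 FPKM at 1000 nM, against 46.1, 43.6 and 50.03 FPKM with DMSO (-0.94 ± 0.19, adjusted p = 0.00191). MDM2, which degrades p53, fell (-0.83 ± 0.19, adjusted p = 0.0048), and so did PMAIP1, the death protein NOXA (-0.96 ± 0.16, 5.67e-04). The 5 lower genes were 3 after centring, without DMSO replicate 2 and without library 1 or 2 at 1000 nM. Of 14 BCL2 family genes 4 fell (28.6%, beside 15.7% of all genes), BBC3 and PMAIP1 with BCL2 (-0.72, adjusted p = 0.0303) and BCL2L2 (-0.57, 0.0277). The calls of BCL2 and BCL2L2 ended after centring and without library 2 at 1000 nM, DMSO replicate 1 or DMSO replicate 2.

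The metabolic and signalling lists stood on both sides of the 15.7% of all genes called lower. Of 26 cholesterol genes 4 fell (15.4%, and 7 genes without library 3 at 1000 nM), led by SQLE, squalene epoxidase (-1.32 ± 0.20, adjusted p = 1.84e-04), and INSIG1, a brake on SREBP (-0.90 ± 0.18, 0.00228). Of 24 glycolysis genes 6 fell (25.0%), led by PFKP (-1.02 ± 0.17, adjusted p = 5.08e-04) and HK2 (-0.94 ± 0.20, 0.00274), and 3 after centring, without library 2 at 1000 nM or without DMSO replicate 1 or 2. In the NF-kappaB list 2 of 14 fell (14.3%, and 4 genes without library 3 at 1000 nM), the chemokine CXCL8 (-1.68 ± 0.30, adjusted p = 9.24e-04) and NFKBIZ (-0.86 ± 0.19, 0.00379). The interferon list had 4 of 19 lower (21.1%), such as IFIT3 (-1.10 ± 0.21, adjusted p = 0.00149) and IRF2 (-0.85 ± 0.18, 0.00327), and 2 after centring, without DMSO replicate 1 or without library 1 at 1000 nM. Of 16 MAPK feedback genes DUSP7 alone was called lower (-0.75, adjusted p = 0.0133), but not without library 2 at 1000 nM (0.0792) or DMSO replicate 2 (0.0589). Of 71 respiratory chain genes NDUFS4 alone was (-0.54, adjusted p = 0.0328), but not after centring (0.283) or without library 1 or 2 at 1000 nM or DMSO replicate 1 or 2 (up to 0.145). In 29 of the 39 lists no member was called higher. Each of those lists held 0 or 1 genes higher at an unadjusted limma p under 0.05, 7 in all. The share of all genes at that cutoff is not given here, so the 7 cannot be set against it. With 1.9% of all genes called higher, a short list can hold none without differing from all genes. After centring several of these lists had members called higher, such as 3 Mediator subunits and 3 of the 3′ end factors.

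Few markers of other cell types could be tested, and their counts say little beside the shares of all genes (15.7% lower, 1.9% higher). Of 14 tested plasma cell genes FKBP11, an ER protein, rose (0.75, adjusted p = 0.0128, lost without DMSO replicate 1 at 0.073) and XBP1 fell. Of 5 tested T cell and myeloid markers LYZ, lysozyme, was lower (-0.78, adjusted p = 0.00761), and not after centring (0.0759), with 2 lower without replicate 3 of either group. None of 6 tested stromal and epithelial markers was called by limma, with 3 lower at an unadjusted p under 0.05, and 1 called lower without library 3 at 1000 nM or without DMSO replicate 3. The erythroid factors summed to 246 to 375 FPKM at 1000 nM and 413 to 461 FPKM with DMSO, and the red cell surface genes to 1184 to 1649 FPKM at 1000 nM and 1588 to 1676 FPKM with DMSO. In these bulk libraries fewer cells of a type and less RNA per cell cannot be told apart.

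Gene length and class set the calls apart only in part. Of genes of at least 1 FPKM in a compared group, 10393 of 10633 (97.7%) matched the GENCODE v29 annotation. With coding genes in 5 equal bins of genomic span, short to long, 19.2%, 17.97%, 20.5%, 19.2% and 15.1% were called lower, with median changes of -0.22, -0.20, -0.25, -0.26 and -0.23. Coding genes with a single exon were lower in 39 of 162 cases (24.1%), beside 18.3% of those with more exons. Centring left 20 of the 162 lower, beside 898 of the 9605 with more exons. Antisense-named transcripts were higher in 14 of 200 cases (7.0%), beside 2.14% of all genes of that level, and lower in 37 (18.5%, beside 18.03%). Numbered ZNF genes were lower in 28 of 248 cases (11.3%) and higher in 5. These class counts moved with scaling. With centring 25 antisense-named transcripts were higher and 17 lower, and 33 ZNF genes were higher and 13 lower. Of all 10633 genes 929 were then higher and 969 lower. The antisense-named transcripts and ZNF genes had median levels of 2.80 and 2.89 FPKM with DMSO, beside 7.88 FPKM for all, and the part of level in their shares was not tested.

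The lower dose of 100 nM is set against the same 3 DMSO libraries, so that changes at the 2 doses are not independent and are given side by side. SNHG12 had 76.98, 66.9 and 82.4 FPKM with DMSO, 14.3, 19.2 and 16.6 FPKM at 100 nM and 14.1, 9.57 and 17.3 FPKM at 1000 nM. RFC4 had 34.6, 28.5 and 26.6 FPKM with DMSO, 15.1, 22.8 and 19.9 FPKM at 100 nM and 9.33, 9.26 and 10.1 FPKM at 1000 nM. EGR1 had 19.3, 18.95 and 15.5 FPKM with DMSO, 43.05, 40.6 and 42.1 FPKM at 100 nM and 79.9, 60.9 and 69.8 FPKM at 1000 nM. The doses overlapped for SNHG12 and not for RFC4 and EGR1. At 100 nM 807 genes (6.61%) were called against DMSO, 486 (3.98%) lower and 321 (2.63%) higher.

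Tested directly against 100 nM, 1000 nM had 17 genes lower (0.139%) and 0 higher (0.0%) in limma, and 1929 lower and 66 higher at an unadjusted p under 0.05. Genes among the 17 included RFC4 (-0.92, adjusted p = 0.0435), UBE2T, a ubiquitin enzyme of crosslink repair (-0.73, 0.0396), GLRX, glutaredoxin (-1.05, 0.0233), ING3, a chromatin protein (-0.79, 0.0435), and PDIA5, a disulfide isomerase (-0.90, 0.0193). All but RFC4 were picked after their values had been seen. The 17 rested on scaling and on single libraries, with 0 after centring, 10 with quantile normalization, 1 without library 2 at 1000 nM, 310 without library 3 at 1000 nM, 38 without library 1 at 1000 nM, 8 without library 1 at 100 nM and 37 without library 3 at 100 nM. EGR1 had a log2 difference of 0.72 between 1000 nM and 100 nM and PCNA one of -0.82, neither called (adjusted p = 0.175 and 0.0833).

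**Figure D5:**
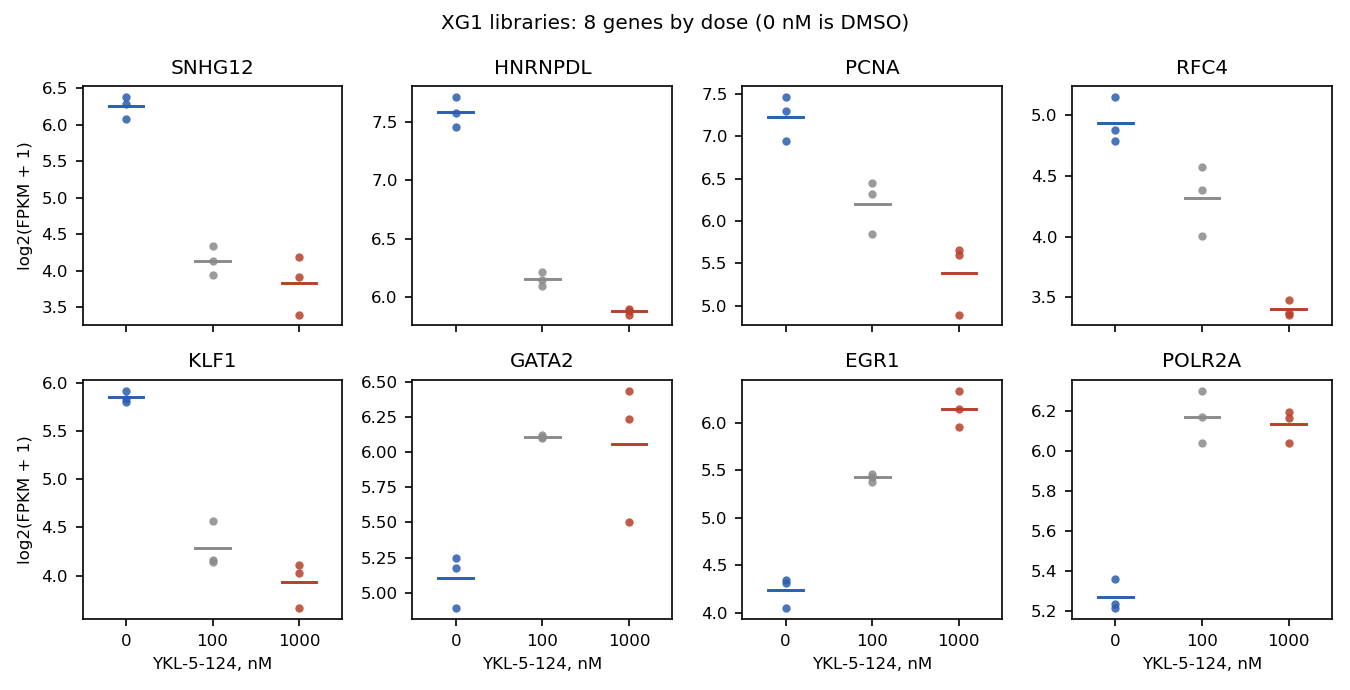
Expression of 8 genes in the 9 XG1 libraries, in log2(FPKM + 1) (axes do not start at 0), against the dose of YKL-5-124, with 0 nM standing for DMSO, a point per library and a line at each mean. RFC4 is lower at 100 nM than with DMSO and lowest at 1000 nM, SNHG12, KLF1 and HNRNPDL are already low at 100 nM, and POLR2A and GATA2 are about as high at 100 as at 1000 nM.

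In AMO1 libraries, with DMSO libraries of their own, 2091 genes (17.1%) were called at 1000 nM, 1874 (15.4%) lower and 217 (1.78%) higher. Of these, 927 were among the 1920 lower in XG1 and 64 among the 232 higher in XG1. The change in XG1 libraries was set against that in AMO1 libraries at the same dose by testing the difference of the 2 changes. It was called for 83 genes (0.68%), 40 (0.328%) with a higher change in XG1 and 43 (0.352%) with a lower one. Of these, 20 were under 1 FPKM in both AMO1 groups and 30 were under 1 FPKM in both XG1 groups, so that for them the line lacking the transcript could not show a fall. KLF1, with an XG1 change of -1.92, averaged 0.633 ± 0.416 FPKM at 1000 nM and 0.8397 ± 0.0535 FPKM with DMSO in AMO1, and the changes differed by -1.72 ± 0.29 (adjusted p = 0.00598). DDIT4 fell in XG1 (-1.72) but averaged 199.7 ± 36.8 FPKM at 1000 nM and 205 ± 51.3 FPKM with DMSO in AMO1, a difference of -1.70 ± 0.31 (adjusted p = 0.00955). BBC3 fell in XG1 (-0.94) and averaged 231 ± 8.04 FPKM at 1000 nM and 158 ± 51.1 FPKM with DMSO in AMO1, a change there of 0.60 (adjusted p = 0.0317) and a difference of -1.54 ± 0.26 (adjusted p = 0.00598). GDF15 rose in both, by 1.41 in XG1 and 2.94 in AMO1, which differed by -1.53 ± 0.28 (adjusted p = 0.0101). The count of 83 moved with libraries of both lines, to 165 without AMO1 DMSO replicate 3 and to between 42 and 55 without XG1 DMSO replicate 1 or 2, XG1 1000 nM replicate 1, AMO1 DMSO replicate 1 or 2 or AMO1 1000 nM replicate 1 or 2.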

How the data were processed

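Transcripts of 18 libraries made by the QuantSeq method were measured, in 6 groups of 3 named by line and treatment in the labels. HISAT2, Cuffnorm and hg19 are named in the submitters' processing notes, with versions and annotation not given in the sources used here. What was deposited was taken as FPKM, scaled by the authors, because Cuffnorm writes that unit while the headers read Expression. Its division by transcript length does not suit 3′ end reads. The bins of level, the median levels of sets of genes and the sums over marker lists carry this scaling. The tables held 26249 genes and 92 spike-ins, no value was 0, and all value columns were mapped to a sample.

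The 12204 genes that averaged 1 FPKM or more in some group were tested on log2(FPKM + 1), pseudocount 1, with limma 3.58.1 (R 4.3.3, statmod 1.5.0), trend and robust estimation, 1 mean per group over 18 libraries, two-sided, Benjamini-Hochberg threshold 0.05. Log2 changes are on that scale and understate the change of low genes. Comparisons were 1000 nM against DMSO, 1000 against 100 nM, and the difference of XG1 and AMO1 responses. Centring subtracts each library's median log2 over tested genes.

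The comparison, its 39 gene lists and the rule for naming genes were chosen with earlier results of these data known. The rule names the 12 largest rises and 12 largest falls among called genes with non-overlapping groups (small RNA genes, pseudogenes and uncharacterised loci left out), per list at most 4 called members in either direction, and CDK7, CCNH, MNAT1, POLR2A, MYC, E2F1, PCNA, GATA1 and MCL1. Other genes named, and the differences between lines of list members, were picked after their values had been seen. Promoters came from RefSeq (GRCh38.p14), and gene spans from GENCODE v29. A few called list members are not reported here by name.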

Additional observations from a re-analysis of the deposited data

Results flagged for a closer look

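The change at 1000 nM against DMSO differed between XG1 and AMO1, by the test of the difference itself in limma, for 13 genes named here. In 12 of them the XG1 change was the lower one, and in CCDC107 it was the higher one. Most of the 13 were named because they were called lower in XG1 libraries, so this split largely follows from the naming. Over all genes tested, 40 differences (0.328%) were higher in XG1 and 43 (0.352%) lower. Each difference below is the XG1 change minus the AMO1 change in log2.

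SAPCD1 (-2.64, adjusted p = 0.0411), GBGT1 (-2.19, 1.70e-04), DHRS9 (-1.97, 9.24e-04) and HEMGN (-1.99, 0.0014) fell in XG1 libraries and averaged under 1 FPKM in both AMO1 groups, where no fall could be seen. The same held for KLF1 (-1.72, 0.00598) and CDK3 (-1.34, 0.0394). CDK3 averaged 0.0943 ± 0.006503 FPKM in AMO1 at 1000 nM and 0.495 ± 0.643 FPKM in AMO1 with DMSO (SD).

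CCDC107 (2.88, adjusted p = 0.025) rose in XG1 libraries by 1.79 and changed by -1.08 in AMO1, where it averaged 14.9 ± 0.166 FPKM at 1000 nM and 35.1 ± 15.00 FPKM with DMSO. BBC3 (-1.54, 0.00598), ATF3 (-1.73, 0.0194) and IER5L (-1.74, 0.0014) fell in XG1 libraries and had changes of 0.60, 0.74 and 1.06 in AMO1 (adjusted p = 0.0317, 0.0423 and 7.08e-04). DDIT4 (-1.70, 0.00955) and ZFP36L2 (-1.33, 0.0118) fell in XG1 and changed by -0.02 and -0.48 in AMO1. GDF15 (-1.53, 0.0101) rose in both, more in AMO1.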

How the results depend on the processing

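The count of genes called higher at 1000 nM was 232, and 969 after centring, 1174 with quantile normalization, 153 among genes with a mean of 5 FPKM, 127 with only the compared libraries in the fit, and 139 to 251 without 1 library. The count of genes called lower was 1920, and 969 after centring, 1209 with quantile normalization, 1070 with only the compared libraries and 933 to 2378 without 1 library. With pseudocounts of 0.1 and 5, spike-in scaling and no filter these counts stayed within 1.5 times. The difference of responses was called for 83 genes, and for 27 and 201 with pseudocounts of 0.1 and 5, 191 after centring, 216 with quantile normalization, 54 with only the compared libraries and 42 to 165 without 1 library. Between doses 17 genes were called, and 60 with a pseudocount of 5, 31 with a mean of 5 FPKM, 0 after centring, 10 with quantile normalization, 45 with spike-in scaling, 2 with only the compared libraries, 37 with a mean of 1 FPKM in a compared group (added after seeing the data, as for the other counts, which it left within 1.5 times) and 1 to 310 without 1 library. The causes were not tested.

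Of the 157 genes chosen by the naming rule 154 were called, 99 of them in every setting that tested them, and no setting turned the sign of any of the 157. Genes named outside the rule are not in these counts, and of those MCM5, NFE2, TAL1, HBG1 and HBG2, none of them called, changed sign after centring. The most calls were lost with only the compared libraries (42), without DMSO replicate 1 (38) or library 2 at 1000 nM (38), and after centring (30).

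No sign was seen that replicate numbers pair treated and DMSO libraries, though low correlations cannot show that cultures were handled apart. Deviations from the group means correlated across genes at 0.03, -0.003 and 0.006 for equal numbers, and not every library correlated best with its own number. With the replicate number as a block 197 genes were higher, 1688 lower, 57 differed between the lines and 13 between the doses.

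With 3 libraries a group and no read counts, precision is known only from the spread between libraries. Library 2 at 1000 nM had fewer genes at 1 FPKM than the others, and whether depth or RNA quality differed there was not tested.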

Other observations

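Small RNA genes were left out of the naming rule. Of 230 tested, 7 were higher (3.04%, beside 1.9% of all genes) and 5 lower (2.17%, beside 15.7%) at 1000 nM, and the genes below were picked after their values had been seen. SNORA12, a box H/ACA small nucleolar RNA, had 18421, 20731 and 15474 FPKM at 1000 nM, against 7035, 5723 and 5083 FPKM with DMSO (1.62 ± 0.15, adjusted p = 1.75e-06). SCARNA12, a small Cajal body RNA, had 171, 243 and 113 FPKM at 1000 nM, against 73.3, 69.8 and 60.6 FPKM with DMSO (1.29 ± 0.23, adjusted p = 7.84e-04). Both were higher in every treated library than in any DMSO library, and both calls held without each of the 6 libraries in turn. SNORA44, which lies within SNHG12, had 0.0873, 0.0621 and 0.0927 FPKM at 1000 nM, against 189.6, 161 and 27.5 FPKM with DMSO (adjusted p = 0.00204). SNORA61, from the same host gene, had 228, 22.03 and 150.2 FPKM at 1000 nM and 40.97, 70.5 and 212 FPKM with DMSO and was not called (adjusted p = 0.969). Scaling to the length of such short genes makes their FPKM large, and their levels are not comparable with those of other genes.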
